A study of Caenorhabditis elegans with 24 samples.

Results

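The genes examined here are nadk-1 (Y77E11A.2) and its neighbour Y77E11A.3, 2 of the 20167 genes for which antisense small RNAs were measured. They were chosen by name, with siRNA levels of these libraries already known, as a pair in which siRNA was thought to be low in the hrde-1 mutant before heat and to build up over the heated generations. Those values are therefore given below as a description, without a test. The description holds for nadk-1 only. siRNA of Y77E11A.3 was close to the WT level in the mutant before heat and, at 23 °C, was highest in an early generation.

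Whole young adult Caenorhabditis elegans of the hrde-1(tm1200) mutant and of the wild-type strain N2 (WT) were kept for 12 successive generations on OP50 bacteria. The first 3, named 15C-G1 to 15C-G3, were grown at 15 °C. The next 6, named 23C-G1 to 23C-G6, were grown under heat at 23 °C, and the last 3, named p15C-G1 to p15C-G3, after the return to 15 °C. Each genotype and generation gave 1 small RNA library, or 24 in all, so that every group below (15C, 23C-G1 to G3 as early heat, 23C-G4 to G6 as late heat, and p15C) holds n = 3 successive generations of a single lineage, and p-values measure only the spread between those generations. Collection followed the release of L1 larvae by 114 to 120 h for animals at 15 °C, and by 50 to 55 h for animals under heat. Animals of 23C-G1 and of p15C-G1 met both temperatures, since each shift began in the embryo. Both genotypes had the same temperature course, and no lineage kept at 15 °C throughout is among these libraries.

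In C. elegans, endogenous siRNAs are made by RNA-dependent RNA polymerases on a target mRNA and are thus antisense to it. HRDE-1 is an Argonaute protein of the germline nucleus, which binds such siRNAs and directs repressive histone methylation and transcriptional silencing at the matching genes, and it is needed for silencing that is passed on between generations. nadk-1 encodes an NAD kinase, the enzyme class that phosphorylates NAD to NADP and so supplies the cofactor of reductive biosynthesis and of antioxidant defence. Y77E11A.3 has no assigned function in the annotation used here, where it is listed as a non-coding RNA. The study includes it, but not nadk-1, in its high-stringent list of heat-inducible nuclear RNAi targets, which was chosen by mRNA of animals of the same experiment, and notes repeats near it. The study's longer list of such genes was not among the sources used here, so whether it holds nadk-1 was not checked.

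Both genes lie on the plus strand of chromosome IV. In the WBcel235 annotation, Y77E11A.3 spans 1447594 to 1448318 with 2 exons (480 bases of exon) and nadk-1 spans 1457075 to 1459521 with 4 exons (1280 bases of exon). They are separated by 8.76 kb, and 0 other genes of the deposited table that could be placed lie between them. The values were made on an older annotation (WS190), so that these positions serve for orientation. Antisense alignments over all exons of a gene were summed by the authors, and where along a gene the siRNAs lie cannot be read from the table.

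Levels are in RPKM, reads scaled to the exon length of the gene and to the total reads of the library. The total of reads behind the values, inferred from the step between low values, ranged from 299500 to 1043000 per library. siRNA over the hrde-1 gene itself lay between 119.4 and 164 RPKM in the 12 mutant libraries and between 250 and 321 RPKM in the 12 WT libraries, so that no library went against its genotype label, although siRNA does not report the deletion itself. siRNAs are not mRNAs, and markers of a tissue therefore show only which genes are targeted. The summed siRNA of 10 germline genes ranged from 1273 to 1889 RPKM in mutant libraries and from 1134 to 1611 RPKM in WT libraries, and that of 6 intestinal genes stayed between 10.32 and 28.57 RPKM in all 24. In whole animals, fewer cells of a type and less siRNA per cell cannot be told apart.

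siRNA of nadk-1 was nearly absent in the mutant before heat. In hrde-1, nadk-1 had 3.53, 6.16 and 5.09 RPKM in 15C-G1, G2 and G3, against 181, 210.4 and 152 RPKM in WT. The mutant values correspond to about 3, 4 and 5 reads, where the lowest value the table allows is 1 read. The group means were 4.93 ± 1.32 RPKM in hrde-1 and 181 ± 29.3 RPKM in WT (SD), a 36.8-fold lower mean in the mutant. Summed over generations, 12 reads in hrde-1 and 311 reads in WT give a ratio of read rates of 0.0268 (hrde-1 over WT). Its 95% interval, 0.0137 to 0.0475, covers counting error only (exact binomial). It leaves out the spread between generations and is no test, since the gene was chosen by this contrast. On the log2(RPKM + 1) scale used for all differences below the difference was −4.95 ± 0.46 (SE). This SE rests on 1 spread per gene shared by all 24 libraries, so that it is the same in every contrast between groups, also within WT. A gene was called where it differed by at least 2-fold with an adjusted p of at most 0.1. In this contrast 4.1% of all 19839 genes were called lower and 36.1% had groups that did not overlap in that direction. The pair was chosen by it, so that nothing is read from these shares. The mutant libraries were also deeper (at least 509700 inferred reads) than the WT ones (at most 502700), so that values at 1 read were lower in them. The median difference of all genes was −0.19, and −0.002 with the 1-read floor taken off. The part of depth in the 36.1% was not tested.

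At 23 °C, the level of nadk-1 in the mutant was higher in each generation than in the one before. The values in hrde-1 were 40.95, 175, 297, 514, 566 and 644 RPKM from 23C-G1 to G6, against 158, 145, 95.3, 76.1, 87.65 and 61.1 RPKM in WT. The 2 genotypes crossed between 23C-G1 and 23C-G2, and 23C-G2 was the first generation with the mutant above WT. The mutant had 0.258 times the WT level in 23C-G1, 1.21 times in G2, 3.12 times in G3 and 10.5 times in G6. The mean of 23C-G4 to G6 was 575 ± 65.1 RPKM in hrde-1 and 74.9 ± 13.3 RPKM in WT (log2 difference 2.93 ± 0.46). All 3 mutant libraries were above all 3 WT libraries, as at 8.08% of genes. In the mutant alone, late heat stood above the first 15 °C by 6.62 ± 0.46 on the log2 scale, the highest value of the 19839 genes in that contrast. Its slope over the 6 heated generations was 0.73 ± 0.09 log2 units per generation. It was 0.47 without 23C-G1, whose animals met both temperatures. These are the values that the gene was chosen for and carry no test. For background, 4.05% of genes were called higher in late heat than at the first 15 °C in the mutant. A rising slope in the mutant passed an adjusted p of at most 0.1 at 0.711% of genes.

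**Figure D1:**
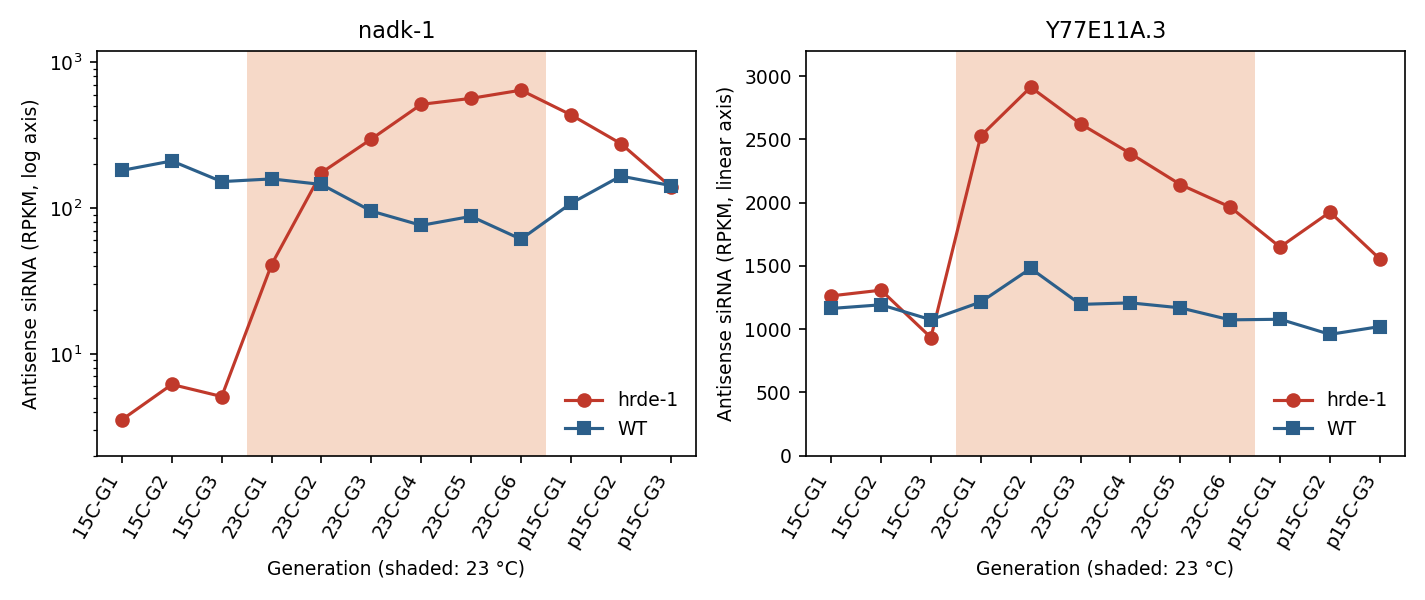
siRNA of nadk-1 (left, RPKM on a log axis) and of Y77E11A.3 (right, RPKM on a linear axis) in the 12 generations of hrde-1 (circles) and WT (squares), 1 library per point, with the generations at 23 °C shaded. nadk-1 lies at 3.53 to 6.16 RPKM in hrde-1 before heat and at 644 RPKM in 23C-G6, whereas Y77E11A.3 lies at 933.5 to 1308 RPKM in hrde-1 before heat and peaks at 2912 RPKM in 23C-G2.

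WT values of nadk-1 lay in the other direction over the same generations. nadk-1 had 74.9 RPKM in WT at 23C-G4 to G6, against 181 RPKM at 15C, a ratio of 0.414, and the ranges (61.1 to 87.65 and 152 to 210.4 RPKM) did not overlap, as at 7.42% of genes in that direction. The log2 difference was −1.26 ± 0.46, and 2.56% of genes were called lower. It is given without a test because the WT libraries at the first 15 °C entered the choice of the gene. The description that chose the gene does not cover the WT libraries at 23 °C, although their levels were already known. There the slope was −0.27 ± 0.09 log2 units per generation. This slope did not pass when both genotypes shared 1 estimate of the spread (adjusted p = 0.45, limma with Benjamini-Hochberg adjustment over 19839 genes, where 0.328% of genes were called with a falling slope). It passed when the 6 WT libraries were fitted alone (adjusted p = 0.024, limma). That fit called slopes in either direction at 271 of 19839 genes, against 103 in the shared fit.

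After the return to 15 °C the genotypes approached each other again. nadk-1 had 436, 277 and 140.1 RPKM in hrde-1 in p15C-G1, G2 and G3, against 108, 166 and 143 RPKM in WT. The mutant was at 4.06 times the WT level in p15C-G1, at 1.67 times in G2 and at 0.982 times in G3. The description that chose the gene does not cover these libraries. Their levels were already known, however, and the mutant ones descend from heated generations that it covers. The difference over the 3 generations was 0.91 ± 0.46 on the log2 scale (284 ± 148 RPKM in hrde-1 and 139 ± 29.3 RPKM in WT). It was not called (adjusted p = 0.31, limma; 3.65% of genes were called higher), and the ranges of the groups overlapped. Without p15C-G1 of the mutant, whose animals met both temperatures, the difference was 0.53. In WT alone, p15C stood above late heat by 0.87 ± 0.46 (139 against 74.9 RPKM, adjusted p = 0.16, limma; 3.67% called higher). With only these 6 libraries in the fit, its adjusted p was 0.0036 (limma), still under 2-fold. That fit called 720 of 19839 genes higher, and the share passing by adjusted p alone was not counted. The ranges of those WT groups did not overlap, which held for 11.7% of genes in that direction.

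The mutant did not return to its own starting point within 3 generations. Even p15C-G3, its lowest library after heat, had 140.1 RPKM, against 3.53 to 6.16 RPKM in the mutant at the first 15 °C. The mean after heat was 57.7 times that before heat, a log2 difference of 5.47 ± 0.46. The ratio of read rates, from 727 and 12 reads, was 59.7 (95% interval 33.9 to 116, exact binomial, counting error only). This contrast rests on the low libraries that the gene was chosen by and has no test. In it 1.32% of genes were called higher, and groups did not overlap in that direction at 6.51%.

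Ordered from low to high, the means of nadk-1 were 4.93 RPKM (hrde-1 15C), 74.9 (WT 23C-G4 to G6), 133 (WT 23C-G1 to G3), 139 (WT p15C), 171.1 (hrde-1 23C-G1 to G3), 181 (WT 15C), 284 (hrde-1 p15C) and 575 RPKM (hrde-1 23C-G4 to G6). The lowest group and the highest did not overlap with their neighbours in this order, nor did the next lowest. The share of genes with such separations was not counted. From the third to the seventh place, each group overlapped in range with the next. These neighbours were not tested against each other, and their order is not settled. The mutant at 23C-G1 to G3 (40.95 to 297 RPKM) also spanned the range of WT at 23C-G4 to G6 (61.1 to 87.65 RPKM). The spread was widest in the mutant at 23C-G1 to G3 (SD 128 RPKM) and at p15C (SD 148 RPKM), where successive generations differed most.

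**Figure D2:**
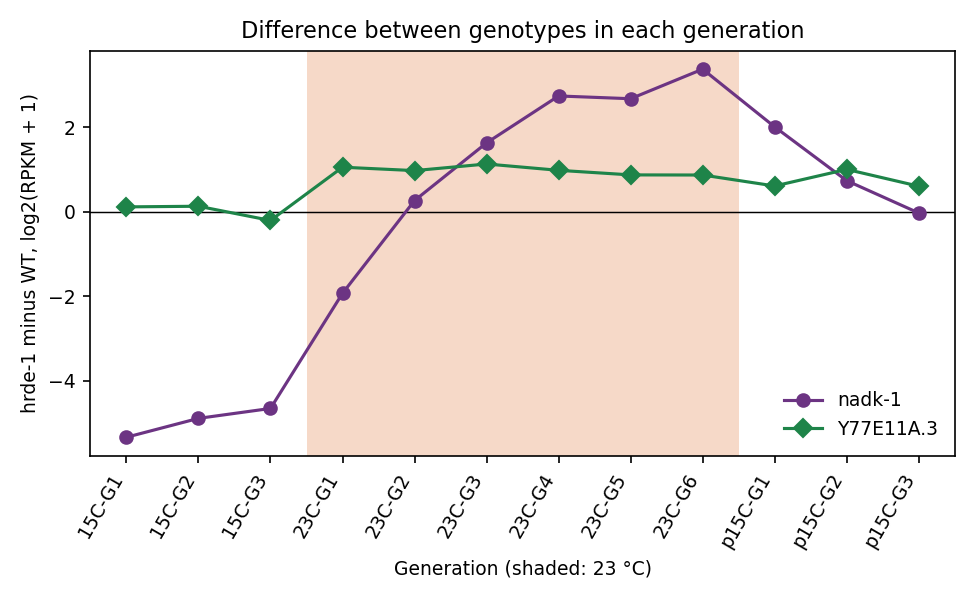
Difference of log2(RPKM + 1) between hrde-1 and WT of the same generation for nadk-1 (circles) and Y77E11A.3 (diamonds), 1 library per genotype and point, with the generations at 23 °C shaded and 0 marking equal levels. nadk-1 runs through 0 between 23C-G1 and 23C-G2 and is back at −0.03 in p15C-G3, while Y77E11A.3 lies between −0.20 and 0.13 before heat and between 0.61 and 1.13 from 23C-G1 on.

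Y77E11A.3, the non-coding neighbour, had a much larger siRNA level per length and another time course. In hrde-1 it had 1263, 1308 and 933.5 RPKM in 15C-G1, G2 and G3, against 1163, 1192 and 1074 RPKM in WT. The ranges overlapped, and the log2 difference was 0.02 ± 0.12. Nothing at Y77E11A.3 before heat resembled the low level of nadk-1 in the same mutant libraries.

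From the first heated generation on, Y77E11A.3 had more siRNA in the mutant than in WT. The values in hrde-1 were 2527, 2912, 2622, 2388, 2143 and 1965 RPKM from 23C-G1 to G6, against 1214, 1479.8, 1195, 1207, 1168 and 1073 RPKM in WT. All 6 mutant libraries were above all 6 WT libraries. The mutant had 1.83 to 2.19 times the WT level in each of these generations. From 23C-G2 on, each mutant value was below the one before, which is opposite in direction to nadk-1 over the same libraries (slope −0.09 ± 0.03 log2 units per generation, a description, since the mutant at 23 °C was used for the choice, with a falling slope called at 0.459% of genes). The log2 difference between genotypes was 1.06 ± 0.12 at 23C-G1 to G3 and 0.91 ± 0.12 at 23C-G4 to G6, also without a test; 2.5% of genes were called higher early in heat and 2.68% late in it. Early in heat, 8.52% of genes had groups separated in that direction, and late in it 8.08%. The share of genes with all 6 libraries separated was not counted. In WT the slope at 23 °C was −0.05 ± 0.03 and was not called (adjusted p = 0.81, limma).

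Y77E11A.3 also had more siRNA in the mutant than in WT after the return to 15 °C. It had 1649, 1925 and 1554.5 RPKM in hrde-1 in p15C-G1, G2 and G3, against 1078, 959 and 1020.0 RPKM in WT, and each mutant library was above each WT library. In this contrast 10.6% of genes were separated in that direction. The means were 1709 ± 193 RPKM in hrde-1 and 1019 ± 59.7 RPKM in WT, a log2 difference of 0.74 ± 0.12. Its adjusted p was 7.6e-05 (limma). The description that chose the pair does not cover these libraries. Their levels were already known, however, and the mutant ones descend from heated generations that it covers, so that this p is not independent support. An adjusted p of at most 0.1 in that direction was reached by 5.02% of genes. At 1.67-fold on this scale the difference stayed under the 2-fold minimum of a call. With 1 of the 6 libraries left out the difference ranged from 0.65 to 0.81, with adjusted p between 0.00015 and 0.0012 (limma).

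In WT, siRNA of Y77E11A.3 varied little. It lay between 959 and 1479.8 RPKM in all 12 libraries, and p15C was 0.17 ± 0.12 below late heat on the log2 scale (1019 against 1150 RPKM, adjusted p = 0.29, limma). In the same WT libraries nadk-1 varied from 61.1 to 210.4 RPKM. The order of the means of Y77E11A.3 was 1019 RPKM (WT p15C), 1143 (WT 15C), 1150 (WT 23C-G4 to G6), 1168 (hrde-1 15C), 1296 (WT 23C-G1 to G3), 1709 (hrde-1 p15C), 2165 (hrde-1 23C-G4 to G6) and 2687 RPKM (hrde-1 23C-G1 to G3). Among the 5 lowest, which are the 4 WT groups and the mutant before heat, each overlapped in range with the next. These neighbours were not tested against each other, and their order is not settled. Groups farther apart in this order did not all overlap. WT at 23C-G1 to G3 (1195 to 1479.8 RPKM) lay above WT at 15C (1074 to 1192 RPKM) and above WT at p15C (959 to 1078 RPKM). The 3 mutant groups from 23C-G1 on did not overlap with the WT groups or with each other. Against WT of the same phase, 8.52%, 8.08% and 10.6% of genes were separated in that direction at early heat, late heat and p15C. For the other separations named here, the share of all genes was not counted.

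The pair shared a chromosomal place and a higher level in the mutant late in heat, but neither the level before heat nor the direction within the heated generations. As a description, log2 levels of both genes had a Pearson r of 0.70 over the 12 mutant libraries and of 0.03 over the 12 WT libraries. The libraries of 1 genotype are successive generations of a lineage under the same temperature course, and are not independent.

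Genes around the pair were examined next, to see whether its siRNAs stood alone. They comprise the 13 other genes of the clone Y77E11A in the table, which include the 5 nearest on each side, within 39.5 kb upstream and 38.1 kb downstream. At p15C, siRNA of 1 of these 13 genes was called higher in the mutant and that of 2 was called lower, with a median log2 difference of 0.08 beside 0.07 over all genes tested; 3.65% and 4.34% of all genes were called higher and lower. The genes directly beside the pair were not called. clp-7, which encodes a calpain-type protease and lies 1.63 kb upstream of Y77E11A.3, had 41.7 ± 4.4 RPKM in hrde-1 and 41.3 ± 0.32 RPKM in WT at p15C. The collagen gene col-106, 0.375 kb downstream of nadk-1 on the other strand, stayed at or near the floor in all 8 groups, with means of 1.68 to 2.94 RPKM.

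clp-6, the second calpain-type gene, 12.6 kb upstream, was higher in the mutant. It had 236 ± 24.1 RPKM in hrde-1 and 86.4 ± 4.5 RPKM in WT at p15C (log2 difference 1.43 ± 0.15, adjusted p = 2.6e-07, limma). The C-type lectin gene clec-171, at 20.2 kb, was lower, with 19.7 ± 6.5 RPKM in hrde-1 and 72.0 ± 20.1 RPKM in WT (−1.83 ± 0.33, adjusted p = 0.00029, limma). Its neighbour Y77E11A.8, at 22.5 kb, was lower too, with 20.9 ± 4.1 RPKM in hrde-1 and 81.1 ± 17.0 RPKM in WT (−1.90 ± 0.35, adjusted p = 0.00038, limma). Before heat, at 15C, the differences already had the same directions, at 0.85 for clp-6, −2.07 for clec-171 and −2.04 for Y77E11A.8 (a description without a test). In WT, clec-171 and Y77E11A.8 had more siRNA at p15C than in late heat (72.0 against 13.2 RPKM at clec-171 and 81.1 against 9.20 RPKM at Y77E11A.8). These 2 log2 differences, 2.37 ± 0.33 and 3.01 ± 0.35, were called, and nadk-1 in the same WT libraries had 0.87. The saposin-like gene spp-31, at 39.5 kb, had a late-heat mean of 92.8 RPKM in hrde-1 and 21.5 RPKM in WT, but 37.1 RPKM in hrde-1 and 32.3 RPKM in WT at p15C.

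**Figure D3:**
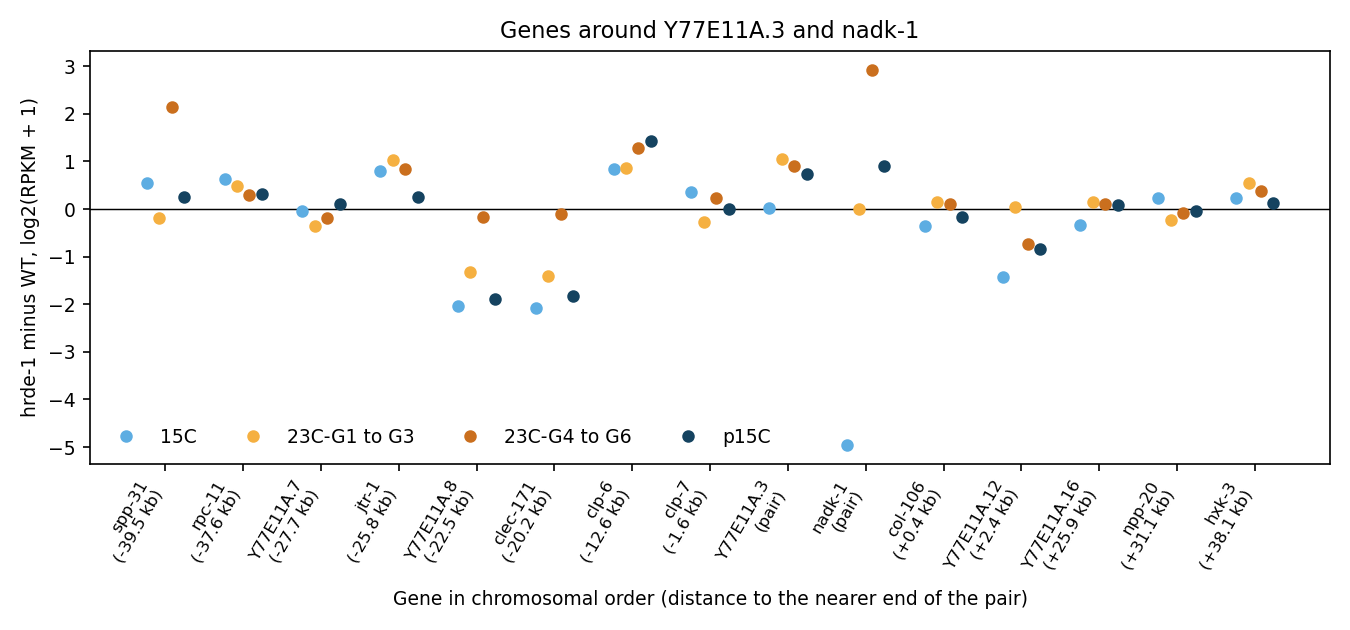
Difference of mean log2(RPKM + 1) between hrde-1 and WT in the 4 phases (n = 3 libraries per genotype and phase, 1 point per phase) for 13 genes of the clone Y77E11A and the pair, in chromosomal order with the distance to the nearer end of the pair. nadk-1 spans −4.95 (15C) to 2.93 (23C-G4 to G6), while clp-7 and col-106 on either side of the pair stay close to 0 and clec-171 and Y77E11A.8 are at −1.83 and −1.90 at p15C.

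Other genes of NAD and NADP metabolism were then compared, to see how siRNA of nadk-1 stood among genes of its pathway. Of 25 listed genes, nadk-1 among them, all were in the table, and 24 passed the minimum of 1 RPKM. At p15C 0 of the 24 were called higher in the mutant (1 at an unadjusted p under 0.05, limma) and 1 was called lower (2 at that p). The median log2 difference was −0.01, beside 0.07 over all genes. Over all genes 3.65% were called higher and 4.34% lower in this contrast, so that 1 lower call of 24 is near the background and is no result about the list. The called gene was pnc-2, which encodes a nicotinamidase of the salvage pathway, with 3.75 RPKM in hrde-1 and 12.6 RPKM in WT (−1.54 ± 0.40, adjusted p = 0.014, limma), and was not called with a pseudocount of 10 RPKM (−0.72). nadk-2, the other NAD kinase gene, had 18.7 RPKM in hrde-1 and 15.2 RPKM in WT at p15C, and its means over the 8 groups lay between 15.2 and 20.6 RPKM. The means of nadk-1 over the same groups lay between 4.93 and 575 RPKM. Of other members, gspd-1, which encodes glucose-6-phosphate dehydrogenase, had 98.6 RPKM in hrde-1 and 111 RPKM in WT at p15C, and qns-1, which encodes NAD synthetase, had 45.3 RPKM in hrde-1 and 39.9 RPKM in WT. nmat-2, which encodes a nicotinamide mononucleotide adenylyltransferase, had 64.1 RPKM in hrde-1 and 45.1 RPKM in WT (0.52 ± 0.37, adjusted p = 0.59, limma). parp-1, which encodes a poly(ADP-ribose) polymerase, had 34.6 RPKM in hrde-1 and 52.0 RPKM in WT (−0.57 ± 0.19, adjusted p = 0.073, limma, under 2-fold). The isocitrate dehydrogenase gene idh-1 had 138 RPKM in hrde-1 and 102 RPKM in WT (0.43 ± 0.15, adjusted p = 0.077, limma, under 2-fold). In WT 0 of the 24 members were called by limma between p15C and late heat, where 6.99% of all genes were called, or for the slope at 23 °C, where 0.519% were. At an unadjusted p under 0.05 these counts were 4 and 1, and nadk-1 was the 1 with such a slope.

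**Figure D4:**
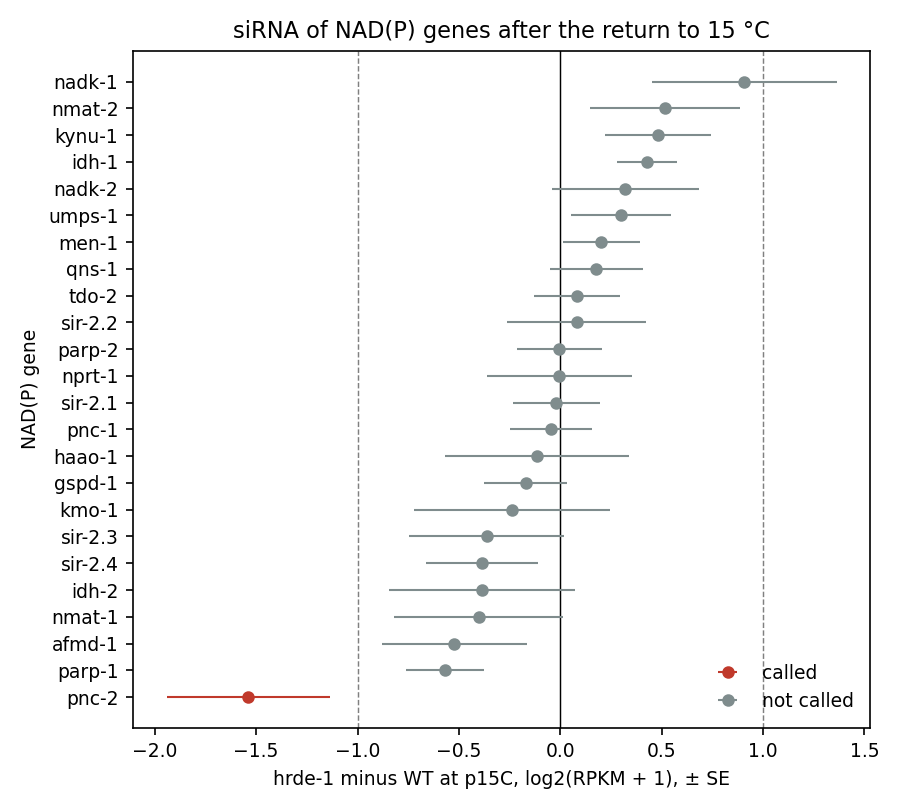
Difference of mean log2(RPKM + 1) between hrde-1 and WT at p15C (n = 3 libraries per genotype) for the 24 tested genes of NAD and NADP metabolism. Bars show the SE, from a spread shared by all libraries of the fit, and dashed lines mark 2-fold. pnc-2 at −1.54 is the 1 gene called, and nadk-1 at 0.91 has the highest value without a call.

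Genes with the most similar siRNA profiles were found by Pearson's r over the 24 libraries among the 8394 other genes that averaged 10 RPKM or more, as a description. For nadk-1 the 5 closest had r between 0.77 and 0.82 and were the F-box gene fbxa-136 (0.82), Y51A2A.6 (0.81), the peroxidasin gene pxn-1 (0.81), Y47A7.2 (0.79) and K05C4.9 (0.77). Like nadk-1, Y51A2A.6 was lowest in the mutant before heat (48.9 RPKM in hrde-1 15C, 322 RPKM in WT 15C) and highest in it late in heat (589 RPKM, against 431 RPKM in WT). fbxa-136 had 5.60, 18.1, 46.7 and 23.6 RPKM in the 4 successive phases of hrde-1, against 23.0, 43.6, 27.7 and 28.4 RPKM in those of WT. In WT, neither had a late-heat mean under that at 15C, whereas pxn-1, like nadk-1, did. pxn-1 had 3.88, 17.3, 33.1 and 10.6 RPKM in the 4 phases of hrde-1, against 19.3, 24.5, 13.2 and 24.3 RPKM in those of WT. For Y77E11A.3 the closest were K05C4.8 (0.89), Y47H9C.9 (0.89), T22F3.12 (0.88), Y53F4B.7 (0.87) and T11F9.19 (0.87). K05C4.8 had 437, 979, 1183 and 616 RPKM in the 4 phases of hrde-1 and 361, 541, 538 and 354 RPKM in those of WT. None of these 10 genes lies on chromosome IV.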

How the data were processed

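Antisense small RNAs of 24 libraries (2 genotypes, 12 generations) were compared as deposited RPKM values. Per the study's methods and the labels, the authors aligned reads with Bowtie 0.12.7 to WS190 mRNAs, kept perfect antisense matches and divided by total reads and exon length. Rules for reads that match several mRNAs were not given in the sources used here, and siRNAs from repeats can be shared by genes.

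No value was 0. Low values lay at multiples of 1 step per library, taken as 1 read, which gave the inferred depths and reads. Exon lengths came from WBcel235. The precision is limited by these reads. Each gene was represented by its transcript of highest mean. Genes averaging 1 RPKM or more (19839) were tested on log2(RPKM + 1) with limma 3.58.1 (R 4.3.3, trend, two-sided, 8 group means; slopes on the 12 libraries at 23 °C). A call needed a 2-fold difference and an adjusted p of at most 0.1 (slopes: the p alone). Phases followed the labels, with the 6 heated generations split into G1 to G3 and G4 to G6. Limma was tested on simulated data.

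Named genes were the pair, the clone's other genes with the 5 nearest per side, the 5 most similar profiles per gene, a NAD(P) list and hrde-1. Pair and lists were chosen with earlier results of these data known. Sperm and oocyte lists were also scored. Tables were made with python 3.11.15. Alternatives were other pseudocounts (10 and 0.1 RPKM), filters, scaling, removal of the 1-read floor, no trend, fewer samples in the fit, a generation block and libraries left out.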

Additional observations from a re-analysis of the deposited data

Results flagged for a closer look

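siRNA of Y77E11A.3 in WT 23C-G2 was 1479.8 RPKM, set apart from the other 5 WT libraries at 23 °C, of which the next was 1214 RPKM. Its gap to that library was 0.65 of the range of the 6, above the 95% limit of 0.625. About 1 in 20 such groups is set apart by chance, and 4 groups were examined. The same generation was also the highest of hrde-1 (2912 RPKM).

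nadk-1 had opposite directions in the genotypes, with every library of one phase outside the range of the other. The share of genes with such a pattern was not counted. From the first 15 °C to late heat the log2 difference was 6.62 in hrde-1 and −1.26 in WT. From late heat to p15C it was −1.15 in hrde-1 and 0.87 in WT. The difference between the genotypes in these contrasts was not tested, since libraries used for the choice of the gene are part of them.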

How the results depend on the processing

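Every log2 difference of nadk-1 and Y77E11A.3 that had a test kept its direction and, with 1 exception, its call under all alternatives. The exception was the WT slope of nadk-1 at 23 °C, which was −0.27 with the 6 WT libraries alone and was then called (adjusted p = 0.024, limma). In the fit of both genotypes, its adjusted p lay between 0.31 and 0.79 (limma) with 1 WT library left out. The fit of WT alone was not repeated with a library left out. pnc-2 at p15C lost its call with a pseudocount of 10 RPKM (−0.72), while clp-6, clec-171 and Y77E11A.8 kept theirs throughout. At p15C, nadk-1 ranged from 0.53 (without hrde-1 p15C-G1) to 1.34 (without hrde-1 p15C-G3), with adjusted p between 0.11 and 0.78 (limma). Before heat, the difference of nadk-1 depended on the scale of low values, at −3.67 with a pseudocount of 10 RPKM and −5.29 with the 1-read floor taken off.

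Counts of called genes were less stable. At p15C 1586 genes were called between genotypes, and 943 with a pseudocount of 10 RPKM. Between WT p15C and WT late heat 1386 were called (728 higher, 658 lower, but under median-ratio scaling 609 higher and 849 lower, and 862 higher and 411 lower with the 1-read floor taken off), which fell to 493 with a pseudocount of 10 RPKM and 803 among genes of at least 10 RPKM, and ranged from 881 (without WT p15C-G2) to 1600 with 1 library left out. The WT slope was called at 103 genes, at 39 with the floor off, 54 without trend, 271 with WT alone and 6 for G2 to G6, and ranged from 4 (without 23C-G1) to 211 (without 23C-G5). The median of all genes was −0.24 between WT p15C and WT late heat, and WT p15C libraries were deeper, a difference whose part in the counts was not tested.

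With generation as a replicate block, 1685 genes were called at p15C, nadk-1 stayed at 0.91 (adjusted p = 0.34, limma) and Y77E11A.3 at 0.74 (adjusted p = 2.57e-05, limma), so that no call changed. Deviations of same-numbered libraries had r over 0.1 in 10 of 12 pairs (−0.02 to 0.37; 0.11 to 0.12 at p15C), and 10 of 12 mutant libraries were closest to their own number. As 2 pairs were not over 0.1, the generations were not taken as paired. Depth limits nadk-1 in hrde-1 before heat, at 3 to 5 reads a library.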

Other observations

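Sets of oocyte and sperm genes, which were not part of any comparison above, gave the following siRNA sums. Over 13 oocyte genes the sum was 1276 to 1318 RPKM in hrde-1 and 991 to 1144 RPKM in WT at 15C, and 1243 to 1342 RPKM in hrde-1 and 1080 to 1202 RPKM in WT at p15C. At p15C 0 of the 13 oocyte genes were called in either direction by limma (1 higher at an unadjusted p under 0.05), where 3.65% of all genes were called higher and 4.34% lower. Over 16 sperm genes the sum was 108.6 to 525.4 RPKM in hrde-1 and 163.2 to 219.9 RPKM in WT at 15C. At p15C it was 313 to 462 RPKM in hrde-1 and 258 to 396 RPKM in WT, and 2 (spe-41 and spe-15) were called lower in the mutant. At an unadjusted p under 0.05, 2 sperm genes were higher (msp-3 at 1.12 and msp-10 at 1.10 on the log2 scale) and 2 were lower, and the median over the list was 0.17, beside 0.07 over all genes. Of the 10 germline genes 0 were called at p15C by limma (1 higher at that p). Of the 6 intestinal genes 1 (vit-5) was called lower, with 1 higher and 2 lower at that p. Between WT p15C and WT late heat 0 of the 10 germline genes were called, with 6 higher and 0 lower at that p (limma). Their median log2 difference there was 0.36, beside −0.24 over all genes. The part of these sums in the levels of nadk-1 and Y77E11A.3 was not tested.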
